A study of Mus musculus with 6 samples.

Results

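A set of 8 RNA genes of the liver transcriptome is described here, *Rn7s1*, *Rn7s2*, *Rn7sk*, *Rpph1*, *Rmrp*, *Terc*, *Rny1* and *Rny3*, which encode the RNAs of the signal recognition particle, the 7SK particle, RNase P, RNase MRP, telomerase and the Ro particle. They were taken by gene symbol and make up 8 of the 45777 genes of the table, all 8 with counts in every mouse. Their Entrez gene numbers in the table are 103948, 103949, 19817, 85029, 19782, 21748, 19872 and 19874 in the order named. The set was selected on its share of the counts and its scaled counts in livers with and without deletion of *Pak4* in hepatocytes, so these values are described without a test. Liver RNA was sequenced from 3 WT and 3 LKO mice, with 1 library per mouse. All 6 mice were C57BL/6 males aged 8 weeks, carried *Pak4* flox/flox and were fasted for 24 h, and the LKO mice also carried Alb-Cre. The paper describes this deletion as specific to hepatocytes. Whether the other cells of the liver kept *Pak4* was not tested here. The comparison asks how the fasted liver transcriptome differs when *Pak4*, a serine/threonine kinase gene, is deleted in hepatocytes.

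These RNAs are short, folded, rarely or never polyadenylated, and act as parts of protein-RNA machines. 7SL RNA is the scaffold of the signal recognition particle, which docks ribosomes that make secreted and membrane proteins onto the endoplasmic reticulum, a heavy task in hepatocytes that secrete plasma proteins. 7SK RNA holds the transcription elongation factor P-TEFb in an inactive state, the RNAs of RNase P and RNase MRP are catalytic cores for tRNA and rRNA processing, telomerase RNA is the template for telomere repeats, and Y RNAs bind Ro60 and La. RNA polymerase III makes 7SL, 7SK, the RNase P and MRP RNAs and Y RNAs, whereas telomerase RNA is made by RNA polymerase II.

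*Rn7s1* and *Rn7s2* are identical in GENCODE vM21 (GRCm38, the assembly of mm10). A read of one therefore matches the other, and their sum is called 7SL. The sequences below, written as DNA from the same annotation, show which short motifs 7SK and the Y RNAs carry.
*Rn7sk* (chr9:78175303-78175633, minus strand) is a single-exon transcript of 331 bases. Its 3 GATC motifs, a sequence bound by HEXIM1 in 7SK RNA, all lie in the first 100 bases, where they are in capitals.
Rn7sk: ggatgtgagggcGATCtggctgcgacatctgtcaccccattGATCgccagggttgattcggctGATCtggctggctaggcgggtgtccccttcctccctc
*Rny1* (chr6:47788069-47788180, minus strand) and *Rny3* (chr6:47781624-47781725, plus strand) are neighbours on chromosome 6 with 112 and 102 bases, and the run of T at their 3′ end, where transcription by RNA polymerase III stops and La binds, is in capitals.
Rny1: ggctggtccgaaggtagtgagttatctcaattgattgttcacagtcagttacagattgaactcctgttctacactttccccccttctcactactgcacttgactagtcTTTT
Rny3: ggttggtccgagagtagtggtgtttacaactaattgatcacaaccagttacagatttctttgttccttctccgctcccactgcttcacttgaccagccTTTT
GATC, which reads the same on both strands, is not particular to 7SK: 60.4% of the 22683 GENCODE transcripts of 100 to 450 bases hold at least 1 copy and 8.52% hold at least 3. An end in TTT, searched on the transcribed strand, was found in 3 of the 8 members, *Rn7sk*, *Rny1* and *Rny3*, and in 4.01% of these transcripts. *Rpph1* (chr14:50807449-50807767, 319 bases), *Rmrp* (chr4:43492788-43493058, 271 bases) and *Terc* (chr3:96414437-96414859, 423 bases) lie on the minus strand and also have a single exon.

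Total counts were 45934632 to 59576437 per mouse. Each RNA is given as a share of the counts of its mouse, and as counts scaled to a common library size (CPM) with TMM factors, which set the bulk of genes equal between libraries. TMM factors were 1.28 to 1.43 in WT and 0.639 to 0.816 in LKO mice. The median log2 fold change of LKO over WT over the 18636 genes tested was −0.04 after TMM, −0.90 with total counts, −0.72 with the total of protein-coding genes, −0.79 on log2(TPM + 1) and −1.34 on log2(TPM + 0.1). Directions are therefore given relative to that median. edgeR's quasi-likelihood test called 40.1% of genes at an adjusted p under 0.05, 19.6% higher and 20.5% lower in LKO. *Pak4* itself had read counts of 268, 210 and 271 in WT and 85, 52 and 149 in LKO mice, with a log2 fold change of −0.71 after TMM that was not called (adjusted p = 0.10, edgeR). By TPM the genotypes did not overlap, with WT mice between 2.31 and 2.59 and LKO mice between 0.265 and 0.845. After TMM they overlapped, at 3.59, 3.21 and 4.1 CPM (WT) against 1.93, 1.49 and 3.22 CPM (LKO), LKO mouse 3 lying just above WT mouse 2. In bulk liver, fewer cells of a type and less RNA per cell cannot be told apart.

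7SL RNA was the most abundant of the 8. Its part of the counts was 5.24%, 4.64% and 4.55% (WT mice 1, 2 and 3) against 15.8%, 15.5% and 11.2% (LKO mice 1, 2 and 3). Every LKO mouse lay above every WT mouse, with LKO mouse 3 the lowest of its group. The mean was 4.81% ± 0.376 in WT and 14.2% ± 2.60 in LKO (SD, n = 3), a ratio of 2.95. *Rn7s1* and *Rn7s2* contributed nearly the same, with 1450329 and 1440727 reads in WT mouse 1 and 4292920 and 4236584 in LKO mouse 1. By number of reads they ranked 2 and 3 among all genes in each WT mouse and 1 and 2 in each LKO mouse. After TMM, 7SL averaged 35591 ± 3119 CPM for WT and 193760 ± 49735 CPM for LKO, and the log2 fold changes were 2.43 (SE 0.42) for *Rn7s1* and 2.46 (SE 0.42) for *Rn7s2*. Reads from the many 7SL-derived copies in the genome could not be told apart in these counts.

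**Figure D1:**
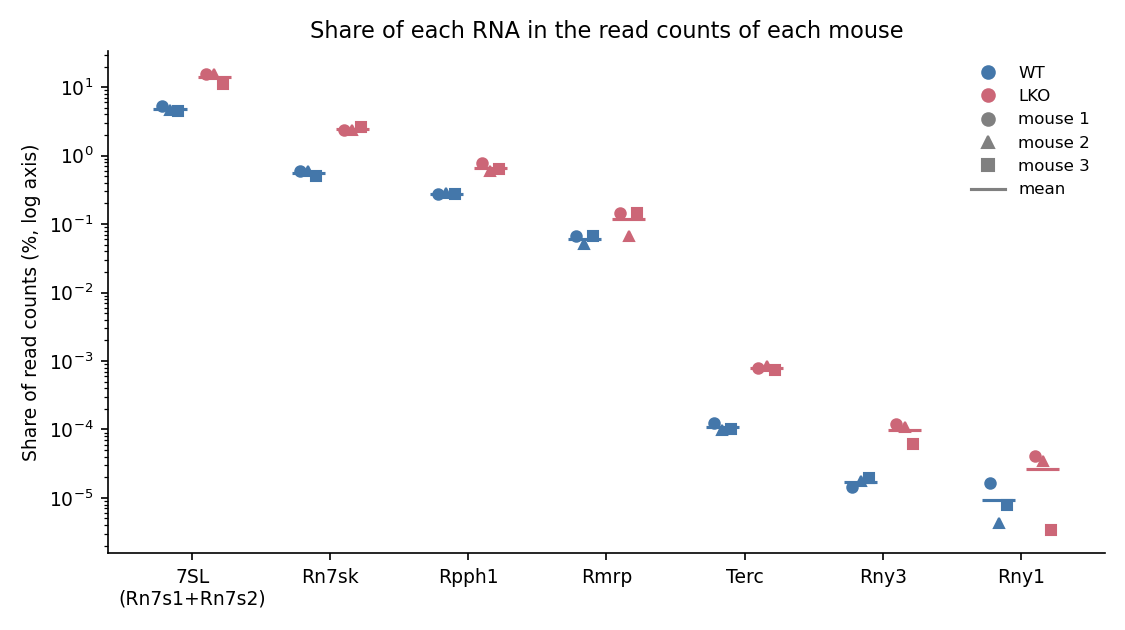
Share of each RNA in the read counts of its mouse, in percent on a log axis, for WT (blue) and LKO (red) mice, with one symbol per mouse and a line at the group mean. 7SL spans 4.55% to 5.24% in WT and 11.2% to 15.8% in LKO mice, whereas the groups overlap for *Rmrp* and *Rny1*.

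The proteins of the signal recognition particle moved in both directions relative to the median of all genes. Of 10 genes for the particle and its receptor, 5 were higher, 3 were lower and 2 were not called. SRP9 and SRP14 form the dimer on the Alu domain of 7SL, which pauses translation. *Srp9* measured 47.0, 44.2 and 60.4 CPM (WT) against 142, 165 and 111 CPM (LKO), and rose by a log2 fold change of 1.46 (SE 0.20, adjusted p = 0.00094, edgeR). *Srp14* rose by 1.04 (SE 0.16, adjusted p = 0.0014, edgeR). For both genes the genotypes did not overlap. *Srp54a*, *Srp54b* and *Srp54c*, copies of the gene for the signal-sequence-binding GTPase whose reads may be split among them, rose by 0.88 to 0.94 (adjusted p 0.0025 to 0.0042, edgeR). In contrast, *Srp68*, a subunit of the S domain, fell by 0.98 (adjusted p = 0.0081, edgeR), while its partner *Srp72* had a log2 fold change of 0.11 and *Srp19* one of 0.22, both not called. The receptor subunit genes *Srpr* and *Srprb* fell by 0.83 and 1.21 (adjusted p = 0.013 and 0.0020, edgeR), the former not without WT mouse 3 (adjusted p = 0.052, edgeR). The median of the 10 was 0.55, beside −0.04 over all genes tested.

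7SK RNA had 334529, 273169 and 257369 reads in WT and 1298825, 1275546 and 1564506 reads in LKO mice. As a share of counts these were 0.606%, 0.595% and 0.499% in WT, and 2.41%, 2.33% and 2.63% in LKO. The LKO mice lay close together and far above the WT mice, and the mouse with the least 7SL among them, LKO mouse 3, had the most 7SK. The ratio of the mean shares was 4.34. After TMM, *Rn7sk* measured 4487, 4175 and 3891 CPM (WT) against 29509, 36574 and 33832 CPM (LKO), and the log2 fold change after TMM was 2.99 (SE 0.32). *Rn7sk* stood at rank 16, 16 and 25 by number of reads in WT and at rank 5 in each LKO mouse.

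Of the 7 protein genes of the 7SK particle and P-TEFb, 0 were called higher, 2 lower and 5 not called by edgeR, with 0 higher at an unadjusted p under 0.05 and 0 with DESeq2 or exactTest. *Hexim1*, whose protein binds 7SK RNA and inhibits P-TEFb, measured 23.9, 14.8 and 20.8 CPM (WT) against 6.86, 4.79 and 6.31 CPM (LKO). Every LKO mouse was below every WT mouse, and *Hexim1* fell by 1.73 on the log2 scale (SE 0.23, adjusted p = 0.00083, edgeR). *Cdk9*, the kinase of P-TEFb, fell by 0.50 (SE 0.17, adjusted p = 0.042, edgeR), a call that was lost without LKO mouse 1 (adjusted p = 0.11) and without LKO mouse 2 (adjusted p = 0.083), and without each of the WT mice (adjusted p 0.062 to 0.12, edgeR), and with upper-quartile factors (adjusted p = 0.070). *Larp7* and *Mepce*, which stabilise and cap 7SK RNA, had log2 fold changes of −0.32 and −0.11 and were not called (adjusted p = 0.19 and 0.67, edgeR). The list's median was −0.37, and its 2 calls fell to 1 without WT mouse 1, 2 or 3 and without LKO mouse 2.

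*Rpph1*, the RNA of RNase P, which trims the 5′ end of tRNA precursors, took 0.276%, 0.285% and 0.273% of counts in WT and 0.777%, 0.591% and 0.630% in LKO mice. The WT values were nearly equal, and each LKO value was above them. The ratio of means was 2.40. After TMM, *Rpph1* measured 2047, 2000 and 2127 CPM (WT) against 9523, 9259 and 8110 CPM (LKO), a log2 fold change of 2.12 (SE 0.24). *Rmrp*, the RNA of RNase MRP, which cleaves rRNA precursors, had shares of 0.0668%, 0.0511% and 0.0667% in WT and 0.145%, 0.0660% and 0.144% in LKO mice. LKO mouse 2 lay within the WT range, so the groups overlapped, and the mean ± SD was 0.0615% ± 0.00902 against 0.118% ± 0.0454 (n = 3). After TMM the overlap was gone, with 494, 359 and 520 CPM (WT) against 1778, 1034 and 1860 CPM (LKO), and the log2 fold change was 1.77 (SE 0.28), the lowest of the 8. By TPM *Rmrp* overlapped again, at 3516, 2739 and 3495 in WT and 4731, 2058 and 5150 in LKO mice, with LKO mouse 2 below every WT mouse. *Rmrp* overlaps *Ccdc107* on the opposite strand, for which edgeR gave a log2 fold change of 1.37 (adjusted p = 0.0061), and *Rpph1* lies within *Ccnb1ip1*, which was listed at 0 in all mice. Whether the counting used strand is not given in the sources used here.

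RNase P and RNase MRP share most of their proteins. Of 11 protein genes, 10 were tested, of which 5 were higher, 2 lower and 3 not called. *Rpp21*, *Rpp30* and *Rpp38*, 3 of the subunits, rose by 1.14, 1.22 and 1.40 (adjusted p = 0.0020, 0.0021 and 0.013, edgeR), the last not without LKO mouse 2 (adjusted p = 0.051, edgeR). The call of *Rpp21* was lost with a length trend (adjusted p = 0.093, edgeR). *Rpp40*, another subunit, measured 36.0, 37.4 and 35.2 CPM (WT) against 9.72, 10.2 and 11.4 CPM (LKO). These are tight and separate groups, and *Rpp40* fell by 1.79 (SE 0.14, adjusted p = 0.00021, edgeR). *Pop1*, the scaffold subunit of both enzymes, had a log2 fold change of −0.27 and was not called (adjusted p = 0.28, edgeR). The median of the 10 genes was 0.27.

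*Terc*, the telomerase RNA, was rare, with 69, 45 and 52 reads in WT and 422, 457 and 439 reads in LKO mice. The 3 LKO mice were nearly alike and all above the WT mice. Its share was 0.000108% of counts in WT and 0.000785% in LKO, a ratio of 7.28, and its log2 fold change after TMM was 3.74 (SE 0.24), the largest of the 8. Of all genes tested, 109 (0.585%) had a larger one. The 95% Wilson interval of the share was 0.0000988% to 0.000158% in WT mouse 1 and 0.000671% to 0.000809% in LKO mouse 3, and such intervals cover counting error only. Among 8 protein genes of telomerase and H/ACA particles, 2 were higher, 1 was lower and 5 were not called. *Nop10*, a core protein of H/ACA particles, rose by 1.58 (SE 0.18, adjusted p = 0.00049, edgeR), and *Naf1*, an assembly factor, by 1.39 (SE 0.36, adjusted p = 0.017, edgeR), the latter not without LKO mouse 2 (adjusted p = 0.051, edgeR). *Tert*, the catalytic subunit, had a log2 fold change of −1.03 with an SE of 0.63 and was not called (adjusted p = 0.22, edgeR), and *Dkc1*, the pseudouridine synthase, had one of 0.41 (adjusted p = 0.070, edgeR).

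The 2 Y RNAs were at the limit of detection. *Rny3* had 8, 8 and 10 reads in WT and 65, 60 and 36 reads in LKO mice, with each LKO mouse above the WT mice. Its log2 fold change after TMM was 3.36 (SE 0.44). *Rny1* had 9, 2 and 4 reads in WT and 22, 19 and 2 reads in LKO mice. LKO mouse 3 was at the level of the lowest WT mouse, and the groups overlapped. The log2 fold change of *Rny1* was 2.28 with an SE of 0.87, the widest of the 8, and the depth does not allow a firmer statement. All 3 genes for proteins on Y RNAs or with La-like roles were called. *Ro60*, the ring-shaped protein that binds Y RNAs, measured 8.41, 10.3 and 7.63 CPM (WT) against 24.0, 21.8 and 28.0 CPM (LKO), and rose by 1.49 (SE 0.18, adjusted p = 0.00054, edgeR). *Ssb*, the La protein that protects the 3′ ends of RNA polymerase III transcripts, rose by 1.33 (SE 0.16, adjusted p = 0.00061, edgeR). *Puf60*, a Ro-binding protein, fell by 0.48 (SE 0.17, adjusted p = 0.046, edgeR), a call lost when any mouse but LKO mouse 3 was left out (adjusted p 0.080 to 0.13, edgeR) and with DESeq2 (adjusted p = 0.055).

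**Figure D2:**
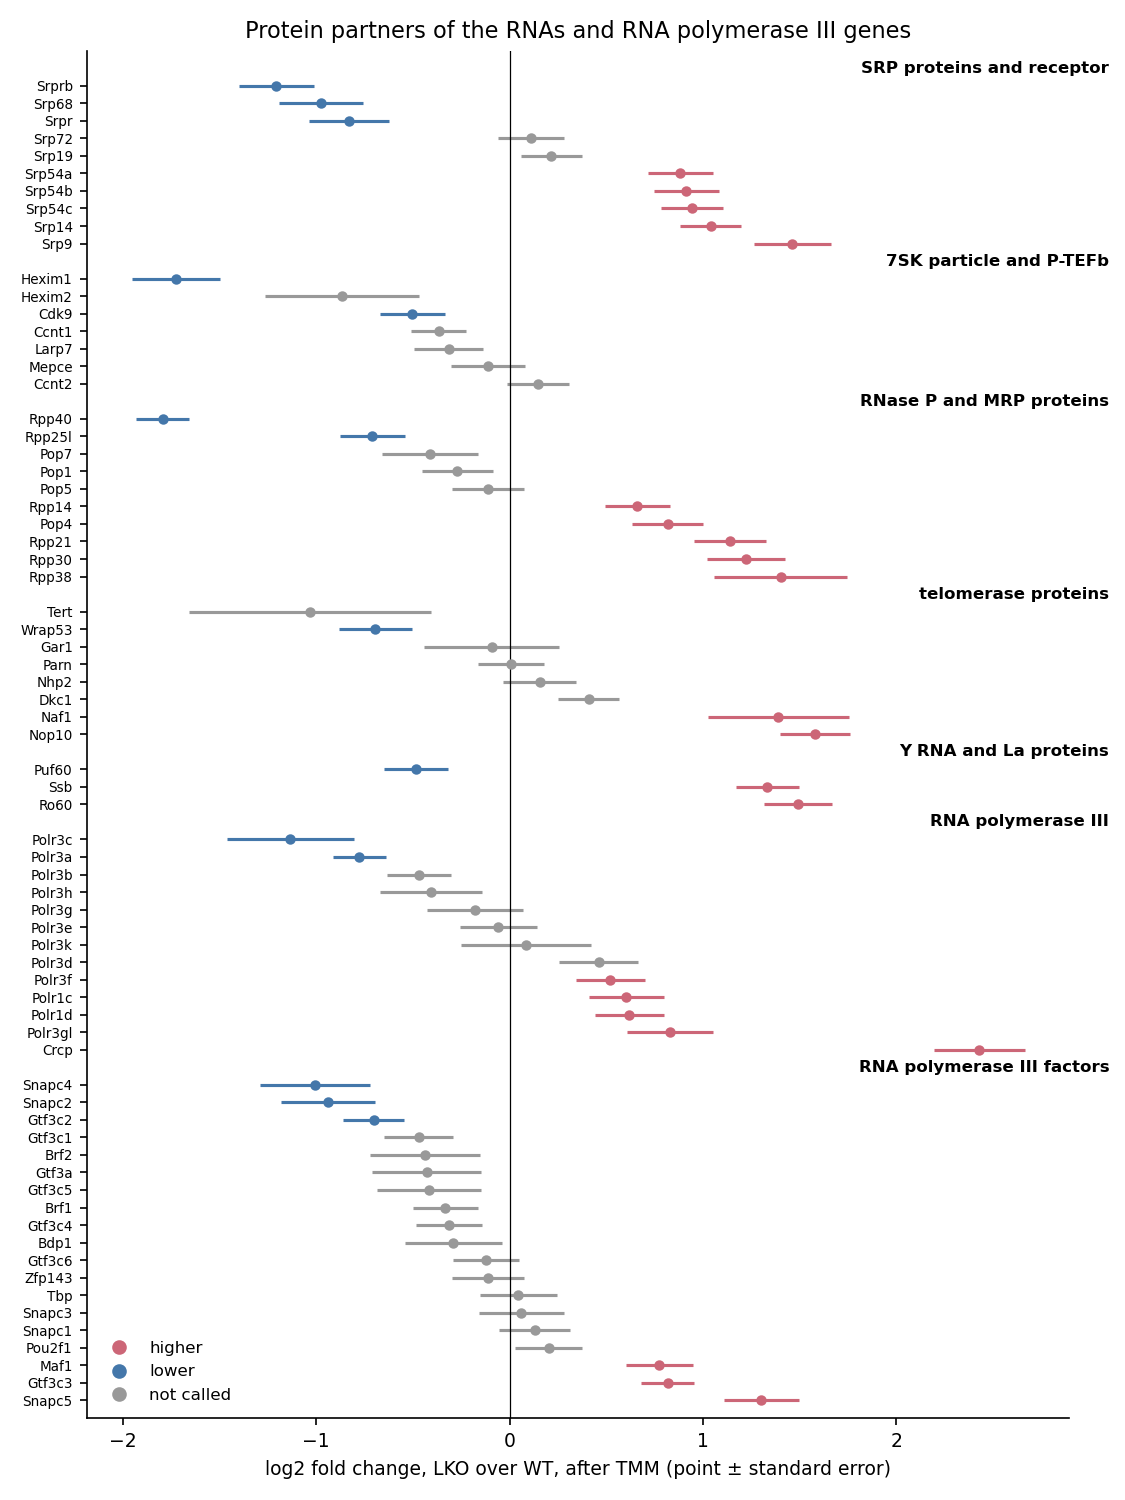
Log2 fold change of LKO over WT after TMM (points, with standard error as bars) for the 70 tested protein genes of the particles and of RNA polymerase III, coloured by edgeR's call. *Hexim1* and *Rpp40* lie far to the left and *Crcp* far to the right, at −1.73, −1.79 and 2.43; the rises of several genes, *Srp14* and *Maf1* among them, turn negative on the TPM scale, where the median of all genes is −0.79.

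Subunits of RNA polymerase III, which makes most of these RNAs, showed no common direction. Of 13 genes, 5 were higher, 2 lower and 6 not called, with a median of 0.08. These 7 calls fell to 4 without WT mouse 1, 2 without WT mouse 2, 2 without WT mouse 3 and 3 without LKO mouse 2. *Polr3a*, which encodes the largest catalytic subunit, measured 21.2, 23.6 and 23.0 CPM (WT) against 13.2, 12.2 and 14.1 CPM (LKO), with separate groups, and fell by 0.78 (SE 0.14, adjusted p = 0.0030, edgeR). *Polr3c* fell by 1.14 (adjusted p = 0.025, edgeR), but not without WT mouse 2 or 3 (adjusted p = 0.077 and 0.074, edgeR), and *Crcp*, a small subunit gene, rose by 2.43 (SE 0.23, adjusted p = 0.00032, edgeR). Of 19 genes for promoter factors and regulators, 3 were higher, 3 lower and 13 not called, with a median of −0.29. *Snapc5* rose by 1.30 (adjusted p = 0.0014, edgeR) and *Snapc4* fell by 1.01 (adjusted p = 0.023, edgeR), 2 subunits of the complex that binds the promoters of *Rn7sk*, *Rpph1* and *Rmrp*. The latter call was lost without WT mouse 1 or 2 or LKO mouse 2 or 3 (adjusted p 0.053 to 0.089, edgeR). *Maf1*, a repressor of RNA polymerase III, rose by 0.77 (SE 0.17, adjusted p = 0.0085, edgeR).

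Across the 7 lists, 22 of 70 tested genes were higher, 14 lower and 34 not called, beside 19.6% higher and 20.5% lower over all genes. With total counts the split was 5 higher and 44 lower, and over all genes 1167 and 9575 in place of 3661 and 3815. Relative to the median of all genes, the 25 partner genes named as called kept their direction under all but 1 alternative setting. The exception was log2(TPM + 1) without a filter, where *Srp14*, *Srp54a*, *Srp54b*, *Srp54c* and *Maf1* turned and 20 of 25 kept it. Where a setting changed only the scaling, subtracting the median undid that change, so agreement there was built in. *Srp14*, *Srp54a*, *Srp54b*, *Srp54c*, *Rpp21*, *Rpp30*, *Rpp38*, *Naf1* and *Maf1* lost their calls with total counts and with the protein-coding total. Their adjusted p was 0.065 to 0.99 in these settings (edgeR).

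How much higher the 8 RNAs were in LKO mice depended on the scale. After TMM, 7 of 8 members had every LKO mouse above every WT mouse (26.1% of all genes tested did, and 27.9% had every LKO mouse below), and by share of counts 6 of 8 (8.37% of genes, and 57.9% the other way round). By TPM, which divides by length and sums to the same total in each mouse, it was again 6 of 8 (2.98% of genes). The rule used this contrast, so nothing is read from these counts. Log2 fold changes of the 8 ran from 1.77 to 3.74 after TMM, from 0.95 to 2.86 with total counts, from 1.12 to 3.04 with the protein-coding total, and from 0.19 to 1.95 on log2(TPM + 1). Relative to the median of all genes they ran from 1.80 to 3.78, 1.85 to 3.76, 1.85 to 3.76 and 0.98 to 2.73. Values on the log2(TPM + 1) scale understate the change of the rare *Terc*, *Rny1* and *Rny3*. Together the 8 RNAs took 6.19%, 5.57% and 5.38% of counts in WT and 19.1%, 18.5% and 14.6% in LKO mice, a ratio of 3.05. Their summed TPM was 274366 ± 20036 for WT and 519204 ± 48599 for LKO, a ratio of 1.89. Protein-coding genes held 88.5% to 89.6% of counts for WT and 77.3% to 80.7% for LKO.

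**Figure D3:**
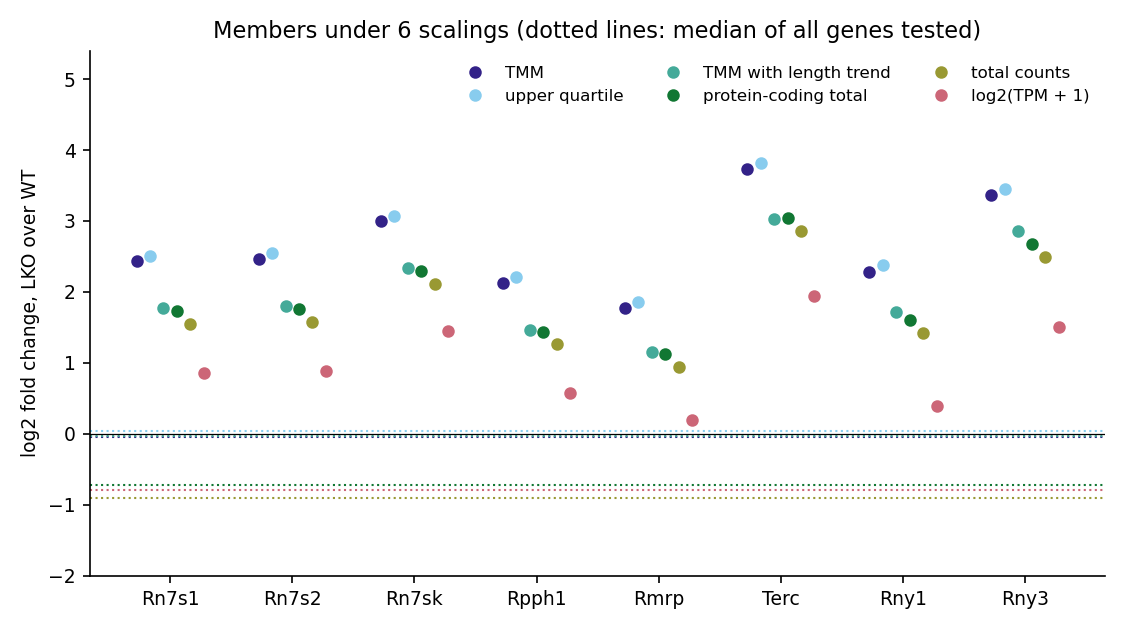
Log2 fold change of LKO over WT of the 8 members under 6 scalings, with dotted lines at the median of all genes tested under each scaling. Every point lies above zero and above its own dotted line, and the values after TMM, 1.77 to 3.74, sit higher than those on log2(TPM + 1), 0.19 to 1.95, whose median is −0.79.

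Ratios between members inside 1 library need no scaling between mice. *Rn7s2* over *Rn7s1* was 0.993 to 1.00 in WT and 0.987 to 1.04 in LKO mice. *Rn7sk* over 7SL was 0.116, 0.128 and 0.110 in WT and 0.152, 0.150 and 0.235 in LKO mice. All LKO mice had more 7SK per 7SL than any WT mouse, and LKO mouse 3 stood out. *Rpph1* over 7SL was 0.0528, 0.0614 and 0.0600 in WT and 0.0491, 0.0380 and 0.0563 in LKO mice, which overlapped. *Rmrp* over *Rpph1* was 0.241, 0.179 and 0.245 in WT and 0.187, 0.112 and 0.229 in LKO mice, also with overlap, and LKO mouse 2 was the lowest. *Terc* over *Rn7sk* did not overlap, with 0.000165 to 0.000206 for WT and 0.000281 to 0.000358 for LKO. *Rny3* over *Rn7sk* overlapped, with 2.39e-05 to 3.89e-05 for WT and 2.3e-05 to 5e-05 for LKO. Thus 2 of these ratios, *Rn7sk* over 7SL and *Terc* over *Rn7sk*, were separate between the genotypes, the former by a small gap (0.128 against 0.150). The others overlapped. The rule used these counts and ratios of other gene pairs were not taken, so no difference between members is concluded.

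**Figure D4:**
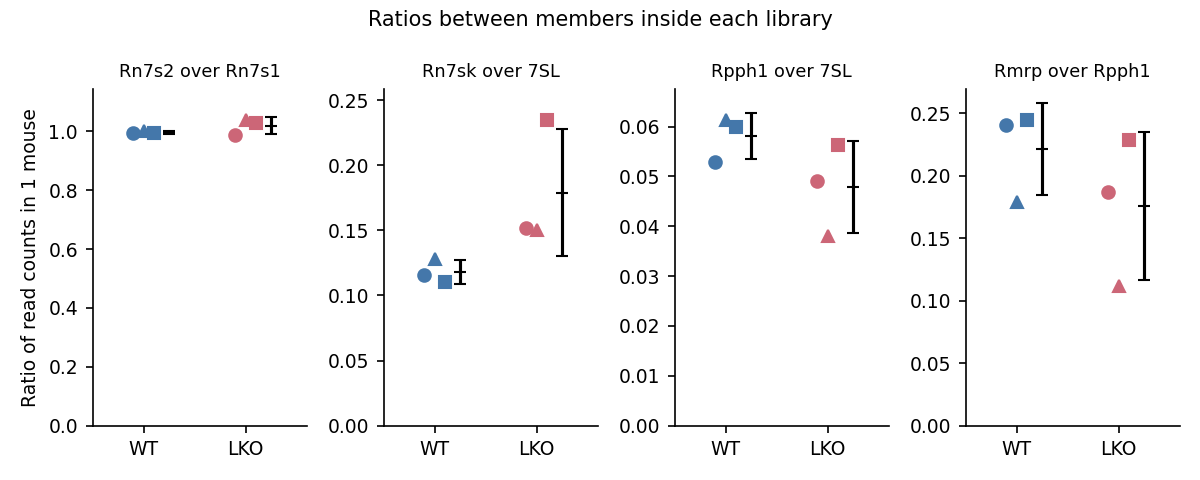
Ratio of the read counts of 2 members in each mouse (points, one symbol per mouse as in the plot of shares) with mean ± SD beside them, for WT and LKO, on axes that start at 0. *Rn7s2* over *Rn7s1* stays near 1 in both groups, *Rn7sk* over 7SL is 0.110 to 0.128 in WT and 0.150 to 0.235 in LKO mice, and the other 2 ratios overlap.

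Per length, in TPM, the order of levels in WT was 7SL at 233824 ± 17849, *Rn7sk* at 24838 ± 2751, *Rpph1* at 12447 ± 429, *Rmrp* at 3250 ± 443, *Terc* at 3.94 ± 0.512, *Rny3* at 2.29 ± 0.421 and *Rny1* at 1.13 ± 0.740 (SD, n = 3). *Rny3* and *Rny1* overlapped in WT, and the other neighbours in this order did not. This is an order of reads per length in these libraries, not of molecules per cell. How evenly the libraries recovered RNAs of unlike length was not tested, and *Rny1* and *Rny3* rest on 2 to 10 reads per WT mouse. *Terc* lay at 4.53, 3.63 and 3.66 TPM (WT) against 17.6, 18.1 and 18.2 TPM (LKO), and *Rny3* at 1.86 to 2.71 TPM against 5.72 to 10.6 TPM. The order was the same in LKO mice, whose means were 428878 ± 55641, 67640 ± 8949, 18678 ± 2940, 3979 ± 1677, 18.0 ± 0.279, 8.52 ± 2.53 and 2.02 ± 1.53, and there *Rny3* and *Rny1* did not overlap.

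Other values moved with the 8 RNAs, and their part in the result was not tested. Protein-coding genes in the shortest decile by relative length (read count over FPKM) had a median log2 fold change of 0.37 and those in the longest decile one of −0.17. Of 22 protein-coding genes no longer than the longest member, 12 were higher and 1 lower, with a median of 0.76. With a length trend fitted in each mouse, the log2 fold changes of the 8 were 1.16 to 3.03 and the median of all genes was −0.03. Of 137 small nuclear RNA genes other than *Rn7sk*, 65 were higher and 1 lower (median 1.73), and of 278 small nucleolar RNA genes, 50 were higher and 5 lower (median 0.43). In the 37 of the latter that averaged 1 CPM or more, 29 were higher and 1 lower (median 2.72). Of 20 tested short structured RNA genes of other families, 15 were higher and 0 lower by edgeR, with 16 and 0 at an unadjusted p under 0.05, and 14 and 0 by DESeq2. These 20 were taken by the start of their symbol and are mostly U RNA genes. They thus overlap with the small nuclear and nucleolar RNA genes above. Some are near-identical copies, and some had few reads, such as *Rnu5g* with 2, 5 and 4 in WT mice. *Rnu1a1*, a U1 spliceosomal RNA gene, had 95, 113 and 143 reads in WT and 1303, 343 and 1350 reads in LKO mice. As with *Rmrp*, LKO mouse 2 was the lowest of its group there. By share this also held for 13 of these 20 genes. It held too for 49 of 66 small nuclear and nucleolar RNA genes that averaged 1 CPM or more, a set that shares genes with these 20. LKO mouse 2 had the lowest TMM factor (0.639), so the bulk of genes has low shares in it. The same count over all genes was not taken, and nothing is read from these counts. *Rmrp* over *Rnu1a1* was 388, 208 and 241 in WT and 60.1, 105 and 63.7 in LKO mice. *Rmrp* had the lowest log2 fold change of the 8 members, so no difference is concluded from this ratio. *Rnu1a1* over *Rn7sk* overlapped, at 0.000284 to 0.000556 in WT and 0.000269 to 0.001 in LKO mice. The sample labels name a kit that selects mRNA and the methods describe removal of rRNA from total RNA, which treat such RNAs differently.

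**Figure D5:**
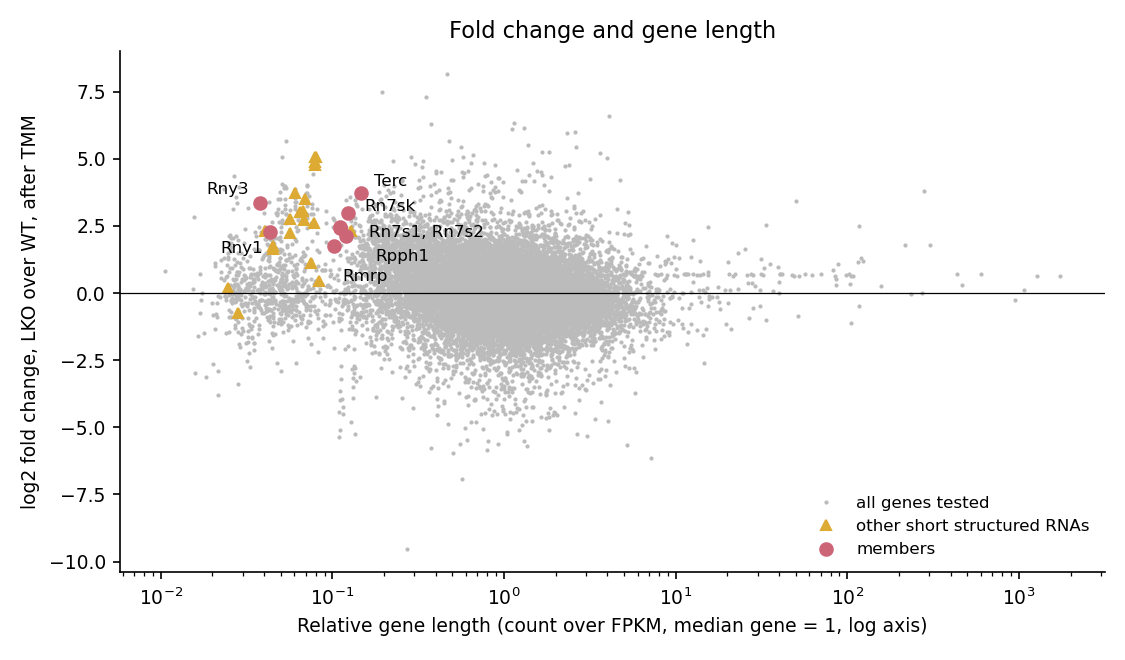
Log2 fold change after TMM against relative gene length on a log axis, for all genes tested (grey), 20 other short structured RNA genes (triangles) and the 8 members (red circles). The members sit at the short end, at 1.77 to 3.74, among other short structured RNAs, of which 15 of 20 were called higher; with total counts, TPM or a length trend the members' values are lower but stay above 0.

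Marker genes of liver cell types also moved. The summed level of 4 red cell genes was 138 to 277 CPM in WT and 857 to 1611 CPM in LKO mice, with *Hbb-bs* and *Hbb-bt* called higher by edgeR and *Hba-a1* and *Hba-a2* not called, whereas DESeq2 called all 4. Summed levels were 44239 to 48132 CPM in WT and 94307 to 121404 CPM in LKO for 6 hepatocyte genes (2 higher, 2 lower). *Alb* made up much of this sum, with means of 21079 (WT) and 69388 CPM (LKO), while *Ttr* and *Trf* were called lower. Sums were 249 to 378 and 371 to 735 CPM for 5 Kupffer cell and macrophage genes (2 higher by edgeR, 3 by DESeq2). Among these, *Adgre1* and *Csf1r* had log2 fold changes of −0.12 and −0.18 and were not called. Sums were 194 to 231 and 295 to 301 CPM for 5 endothelial genes (3 higher). For 5 stellate cell genes (2 higher, 1 lower) they were 278 to 326 and 568 to 822 CPM. There *Dcn* had means of 116 (WT) and 505 CPM (LKO), while *Col3a1* was called lower, with means of 80.4 and 22.4 CPM. For the 3 tested of 4 bile duct genes and for 4 lymphocyte genes, sums stayed at or below 3.38 CPM. Of these, 0 were called higher by edgeR or DESeq2 (1 at an unadjusted p under 0.05 in edgeR), and 1 lymphocyte gene, *Nkg7*, was called lower. Hepatocyte genes were thus abundant, as the label of liver says, and the part of these shifts in the members' values was not tested.

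The genes with the most similar CPM profile over the 6 mice were *Pomp*, *Rabac1* and *Trmt1* for 7SL (Pearson's r 0.999) and *Gimap6*, *Creg1* and *Psma6* for *Rn7sk* (r 0.998 to 0.999), out of 6892 genes that averaged 10 CPM or more. These r values describe 6 mice that share libraries and depth. With the mean of each genotype taken out, r was 0.970 to 0.975 for the 3 genes named for 7SL and 0.931 to 0.976 for those named for *Rn7sk*. The genes were picked by r over the same 6 mice, so high values here follow largely from that choice. Over the 6 mice, 997 genes had an r above 0.95 with 7SL and 1032 with *Rn7sk*.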

How the data were processed

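Liver RNA of 3 WT and 3 LKO mice, grouped by the genotype in their labels, was sequenced by the authors. Per the labels, bcl2fastq 2.20.0, FastQC 0.11.7, HISAT2 2.1.0, Bowtie2 2.3.4.1 and StringTie 2.1.3b were used on mm10. The authors deposited raw read counts, which StringTie derives from coverage, beside FPKM and TPM, for 45777 genes. The deposited FPKM are scaled to gene length and to fragments sequenced, and the deposited TPM sum to the same total in each mouse. Nothing in the sources used here says that mice of a group came from separate litters, and p-values measure the spread between these mice.

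Genes with more than 1 zero count among 6 mice were left out, leaving 18636. Counts were scaled by TMM and tested with the two-sided quasi-likelihood test of edgeR 4.0.16 (R 4.3.3) with Benjamini-Hochberg adjustment over all genes, at 0.05. Depth was 45934632 to 59576437 counts per mouse. Shares were counts over the summed counts of a mouse, with 95% Wilson intervals. The table held 89.7% to 90.4% of the total that its FPKM imply in WT and 86.1% to 87.3% in LKO mice. With the implied total as denominator, the ratio of 7SL shares was 2.85 in place of 2.95. Relative length was the median over mice of count over FPKM, each mouse scaled to a median of 1, and the length trend was a lowess fit with span 0.3. Members, 7 partner lists, 7 marker lists and the other short RNAs were chosen with earlier results of these data known. The genes named are the 8 members, genes of these lists, genes that overlap members, and the 3 genes most like 7SL and 7SK. Alternatives used DESeq2 1.42.0, limma 3.58.1 on log2(TPM + 1) or log2(TPM + 0.1), other filters and scalings, a replicate block, and leaving out each mouse. On simulated counts for 18457 genes, 200 of 200 genes with a true log2 fold change of 2 in either direction were recovered with 8 false calls. These changes were balanced, in genes with a mean above 1 CPM, and all genes had the same dispersion. The simulation therefore does not cover the uneven scaling of these libraries or the rare members. The replicate numbers of the labels are not stated to pair mice. The paper used *Pak4* flox/flox littermates as controls, without saying which of these mice shared a litter. Some sequences are not reported here.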

Additional observations from a re-analysis of the deposited data

How the results depend on the processing

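For *Rn7s1*, *Rn7s2*, *Rn7sk*, *Rpph1*, *Rmrp*, *Terc* and *Rny3* in turn, log2 fold changes were 1.55, 1.57, 2.12, 1.26, 0.95, 2.86 and 2.49 with total counts, 1.73, 1.76, 2.29, 1.44, 1.12, 3.04 and 2.67 with the protein-coding total, 0.85, 0.88, 1.44, 0.57, 0.19, 1.95 and 1.50 with limma on log2(TPM + 1), the same without a filter, and 0.85, 0.88, 1.44, 0.57, 0.19, 2.17 and 1.82 on log2(TPM + 0.1). For the first 6 of these they were 1.77, 1.80, 2.33, 1.47, 1.16 and 3.03 with a length trend and 1.76, 1.79, 2.33, 1.47, 1.12 and 3.04 with that trend and the replicate block. Totals and TPM do not set the bulk of genes equal, as TMM does, and the cause was not tested further. The ratio of mean shares became 1.83 for 7SL, 2.72 for *Rn7sk*, 1.50 for *Rpph1*, 4.56 for *Terc* and 1.89 for all 8 in summed TPM, and 4.90 for *Rn7sk* over protein-coding counts and 4.95 over all other genes. No member changed direction in the alternatives run, DESeq2, exactTest, upper-quartile scaling and 2 other filters included. *Rny1* and *Rny3* were not tested with at least 10 counts in every mouse. Leaving out 1 mouse gave 5663 to 7309 genes and 26 to 38 partner genes called.

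With limma, 13775 genes were called on log2(TPM + 1), 13792 without a filter and 14002 on log2(TPM + 0.1) (453, 455 and 467 higher), against 7476 with edgeR after TMM; with the protein-coding total, 1443 of 9723 genes called were higher. Partner genes called were 62, 62 and 61, of which 1 was higher, and 44 with the protein-coding total, 6 of them higher. Values of *Srp9*, *Srp14*, *Srp54a*, *Srp54b*, *Srp54c*, *Rpp21*, *Rpp30*, *Naf1*, *Ro60*, *Ssb*, *Snapc5* and *Maf1* turned to −0.087, −0.50, −0.65, −0.61, −0.52, −0.37, −0.29, −0.026, −0.017, −0.22, −0.22 and −0.67 on log2(TPM + 1), with or without a filter, and to −0.088, −0.51, −0.70, −0.64, −0.55, −0.40, −0.33, −0.033, −0.031, −0.22, −0.24 and −0.76 on log2(TPM + 0.1); with total counts, *Srp54a* turned to −0.0016 and *Maf1* to −0.085. The cause was not tested. Same-numbered WT and LKO mice did not deviate together (r 0.051, −0.025 and −0.076). With so few mice this shows no pairing by number but cannot exclude one. A replicate block left 6431 genes and 32 partner genes called. It gave log2 fold changes of 2.40, 2.43, 2.99, 2.12, 1.74, 3.73, 2.06 and 3.30 for the 8 members in the order of the report. Depth limits *Rny1*, *Rny3* and *Terc*. The FPKM-implied total and scaling without the members were added after the data were seen, and without the members 7456 genes were called.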

Other observations

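Of the long non-coding RNAs of the nucleus, *Neat1*, the scaffold of paraspeckles, was at 2539, 3222 and 2665 CPM after TMM in WT and 188, 181 and 266 CPM in LKO mice and fell by 3.73 on the log2 scale (SE 0.26, adjusted p = 0.00019, edgeR's quasi-likelihood test), opposite to *Rn7sk*. *Malat1*, a nuclear speckle RNA, measured 5146, 5615 and 4703 CPM (WT) against 4109, 3265 and 3906 CPM (LKO), without overlap, and was not called (log2 fold change −0.46, SE 0.24, adjusted p = 0.16, edgeR). These genes were chosen after earlier results of these data were known. Among the short RNAs, 4 genes of the U3 small nucleolar RNA, *Rnu3b1* to *Rnu3b4*, near-identical copies whose reads cannot be assigned, rose by 4.77 to 5.08 (adjusted p 0.00031 to 0.00045, edgeR), with 60 to 129 reads in WT and 812 to 3534 reads in LKO mice. *Bc1*, a brain cytoplasmic RNA made by RNA polymerase III, had 52, 38 and 63 reads in WT and 166, 176 and 84 reads in LKO mice and rose by 2.25 (adjusted p = 0.0034, edgeR), and *Vaultrc5*, the vault RNA, had 19, 9 and 16 reads in WT and 32, 48 and 50 in LKO mice and rose by 2.31 (adjusted p = 0.0033, edgeR). Of the 48 short structured RNA genes of other families in the table, 23 were listed at 0 in all mice and 28 were not tested.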
